A study of Homo sapiens with 8 samples.

Results

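The genes for the receptors of GABA and glutamate were followed in the human neuroblastoma line BE2C, in which MYCN is amplified, after chemical inhibition or siRNA knockdown of the histone demethylase KDM6B. Members were taken by symbol alone: every measured gene whose name begins as those of the GABA-A, GABA-B, AMPA, kainate, delta, NMDA and metabotropic glutamate receptors do. This gave 44 of the 17687 genes with a symbol on the array. All but 3 of these encode receptor subunits. The 3 share only the spelling: GRINA, a membrane protein named for an NMDA receptor link, GRID2IP, a scaffold that binds the delta-2 receptor, and GRIK1-AS2, an RNA antisense to GRIK1. Each member was read by 1 probe set.

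RNA was measured on 8 Clariom S human arrays, which read each transcript with a set of short probes, and each of the 4 groups had 2 arrays. Cells received GSK-J4 or its vehicle, 0.1% DMSO, for 24 h. In a separate experiment they carried 30 nM of KDM6B siRNA or control siRNA over 48 h. The ester GSK-J4 enters cells and is cleaved there to an inhibitor of KDM6 demethylases. Its labelled dose is 2.5 mM. For cells the study's text gives the same figure in micromolar, which leaves the labelled unit in doubt. The labels do not say which siRNA sequence was used for each array. All cells were of 1 line, and the labels call the replicates biological without saying that they were separate cultures, so the p-values measure the spread between these arrays.

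GABA-A receptors are chloride channels assembled from alpha, beta and other subunits, and GABA-B receptors are G-protein-coupled dimers of GABBR1 and GABBR2. Glutamate acts on AMPA, kainate and NMDA channels, each built of its own family of subunits, and on the G-protein-coupled metabotropic receptors. These genes are known mainly from mature neurons, whereas neuroblastoma arises from precursors of the sympathetic nervous system.

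Values are the deposited log2 signals, so a difference of 1 is a doubling. As a background limit, the 95th percentile of the 612 negative control probe sets was taken on each array, which lay between 4.62 and 4.89, and a gene counted as above background in a group if its 2 arrays exceeded it. KDM6B itself had 7.22 and 5.76 in the KDM6B siRNA arrays, against 8.27 and 8.36 in control siRNA arrays, a difference of -1.82 (SE 0.39, limma adjusted p = 0.0878). With GSK-J4 it was 9.41 and 9.18, against 8.17 and 8.47 with DMSO (0.98, adjusted p = 0.25). The 2 KDM6B siRNA arrays stood apart from each other: their values correlated at r = 0.974 over genes, against 0.994 to 0.996 within the other groups, and 906 genes differed by over 1 log2 unit between them, against 3 to 8 genes in the other groups. Of all genes, 75.3% were above background in at least 1 group. Among markers the number was 8 of 8 measured for adrenergic neuroblastoma, 7 of 7 for mesenchymal neuroblastoma or fibroblasts and 6 of 6 for mature neurons. It was 2 of 4 for glia (GFAP and S100B, not AQP4 or MBP) and 1 of 4 for blood (CD68, not PTPRC, CD3E or HBB). The mesenchymal marker PRRX1 was above it in the KDM6B siRNA group only. The neuronal marker SLC17A7 lay near the limit, at 4.99 to 5.18 over the arrays.

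Of the 44 genes, 21 were above background in at least 1 group (47.7%), against 13323 of all 17687 genes (75.3%). In all 4 groups, 16 were above it (36.4%, against 70.2% of all genes). By group the number was 20 with GSK-J4, 20 with DMSO, 19 with KDM6B siRNA and 20 with control siRNA. These counts depend on the limit: at the 99th percentile of the negative controls they were 5 with GSK-J4, 7 with DMSO, 5 with KDM6B siRNA and 8 with control siRNA. A further 3 genes exceeded the 95th percentile on no more than 1 array of any group, and 20 exceeded it on no array. These shares are descriptions. RNA from all cells of a culture was measured together, so fewer cells expressing a gene and less RNA per cell cannot be told apart.

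**Figure D1:**
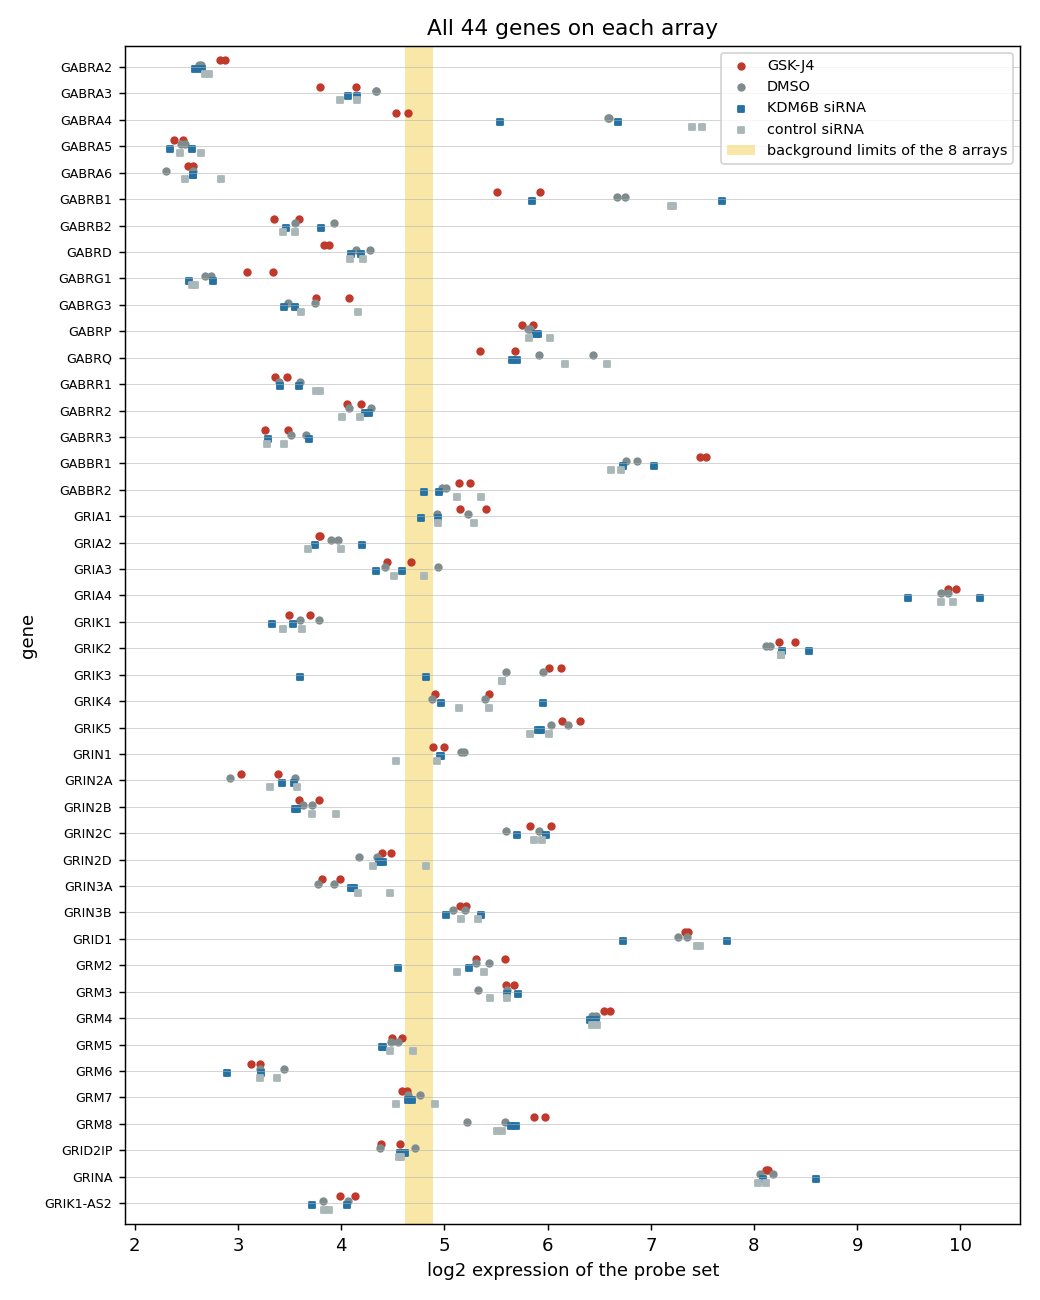
Log2 signal (horizontal axis) of each of the 44 genes (rows, grouped by family) on the 8 arrays, 1 point per array, coloured by group, with the range of the background limits (4.62 to 4.89) marked. In the GABA-A block most rows lie wholly below the limits, and GABRA4 spreads across them, with its 2 GSK-J4 arrays at 4.53 and 4.65.

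Among the 15 GABA-A subunit genes, 4 were above background: GABRA4 (alpha-4), GABRB1 (beta-1), GABRP (pi) and GABRQ (theta). The other 11 were above the limit on no array, including GABRG1 and GABRG3 of the gamma subunits, GABRD (delta), which often joins alpha-4 outside synapses, and the rho subunits GABRR1, GABRR2 and GABRR3. Both GABA-B genes were above background in every group, GABBR2 narrowly, at 4.80 to 5.36 over the arrays. In the glutamate families, GRIA1 and GRIA4 of the 4 AMPA genes passed, while GRIA2, whose edited protein limits calcium entry, was above the limit on no array. Of 5 kainate genes 4 passed, all but GRIK1.

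Of 7 NMDA genes, 3 passed: GRIN1, the subunit that every NMDA receptor needs, GRIN2C and GRIN3B. GRIN1 lay near the limit, at 4.53 to 5.19 over the arrays. GRIN2A, GRIN2B and GRIN3A were above the limit on no array, and GRIN2D on 1. The single delta gene measured, GRID1, was above background throughout. Among 7 metabotropic genes, GRM2, GRM3, GRM4 and GRM8 passed, GRM5 and GRM6 were above the limit on no array, and GRM7 was above it on 2 arrays of different groups. The 23 genes above background in no group spanned 2.30 to 4.94 over all arrays.

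GSK-J4 was compared with DMSO to find which receptor genes moved with the inhibitor. GABRA4 fell and GABBR1, a GABA-B subunit, rose. These were 2 of the 44 genes at a limma adjusted p under 0.05, against 3.70% of all genes. In the separate directions, 1 member fell, against 1.41% of all genes, and 1 rose, against 2.29%. The median difference was 0.03 over the members and -0.02 over all genes. The arrays of the groups did not overlap for 19 members, 10 higher and 9 lower with GSK-J4, against 54.1% of all genes.

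GABRA4 was at 4.53 and 4.65 in GSK-J4 cells, against 6.59 and 6.59 in DMSO cells. Both GSK-J4 arrays lay below their background limits (4.88 and 4.86), and both DMSO arrays far above them. The measured difference was -2.00 (95% CI -2.71 to -1.30, SE 0.31, adjusted p = 0.015). Because the GSK-J4 signal was not above background, the fall is also given as a bound, with dim values raised to the limit. The raised difference was -1.72 (95% CI -2.39 to -1.05), or 3.30-fold. This bound allows for the background limit. Raising replaces both GSK-J4 values with their limits, so the interval does not hold the measured spread of that group. The shared spread of GABRA4 included a gap of -1.14 between its 2 KDM6B siRNA arrays (second minus first). Its call held in the 4 arrays of the comparison alone (limma adjusted p = 3.30e-04). It also held without both KDM6B siRNA arrays, a setting added after seeing the data (limma adjusted p = 2.43e-05). GABRA4 lost its call without any 1 array of GSK-J4, DMSO or control siRNA, and its difference stayed between -2.06 and -1.94. The t-test named by the methods also missed it (adjusted p = 0.119).

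GABRA4 and GABRB1 are neighbours on chromosome 4, on opposite strands, with start sites 37986 bases apart in the RefSeq annotation of GRCh38.p14. Of the 44 genes, 35 had a window in the RefSeq set, from 250 bases before to 50 bases after the start. The windows of this pair are shown because they are the GABA-A subunits with the lowest differences, with every CG pair in capitals. GABRA4 (chr4:46993532-46993831, minus strand) has 32 CG pairs, more than 81.1% of the 35116 windows of this kind, and GABRB1 (chr4:47031317-47031616, plus strand) has 10, more than 43.6%. The median window has 14.
GABRA4: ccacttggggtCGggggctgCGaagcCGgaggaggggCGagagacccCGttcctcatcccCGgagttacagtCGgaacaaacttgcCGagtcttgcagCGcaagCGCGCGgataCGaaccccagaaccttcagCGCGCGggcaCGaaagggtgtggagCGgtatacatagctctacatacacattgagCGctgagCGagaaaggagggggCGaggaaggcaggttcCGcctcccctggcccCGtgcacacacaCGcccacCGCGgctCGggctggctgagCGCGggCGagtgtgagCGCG
GABRB1: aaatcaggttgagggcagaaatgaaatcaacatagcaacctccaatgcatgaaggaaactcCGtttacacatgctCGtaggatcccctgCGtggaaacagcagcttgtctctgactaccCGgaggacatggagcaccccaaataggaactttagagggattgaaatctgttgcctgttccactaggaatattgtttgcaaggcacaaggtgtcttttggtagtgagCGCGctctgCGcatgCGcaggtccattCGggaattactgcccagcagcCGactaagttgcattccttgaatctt
The motifs searched on both strands were GGGCGG (GC box, in 45% of all windows), CCAAT (34.6%), TATAAA (11.5%), CACGTG (E-box, 7.26%), TTTGGCGC or TTTCCCGC (E2F, 2.27%) and TGACGTCA (CRE, 1.85%). GABRA4 holds none of these letters in its window, and GABRB1 holds CCAAT.

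GABRB1 was at 5.93 and 5.51 in GSK-J4 cells, against 6.67 and 6.75 in DMSO cells. Both GSK-J4 arrays were the lower ones, but the difference of -0.99 (95% CI -2.09 to 0.11, SE 0.48) did not pass, with an adjusted p of 0.348. The shared spread of this gene included a gap of 1.84 between its 2 KDM6B siRNA arrays. The same difference passed in the 4 arrays of the comparison alone (adjusted p = 0.0115) and with array weights (adjusted p = 0.0255). It also passed without both KDM6B siRNA arrays (adjusted p = 0.00311), a setting added after seeing the data.

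GABRQ, the theta subunit on chromosome X, had 5.68 and 5.35 with GSK-J4, against 5.92 and 6.44 with DMSO (-0.67, SE 0.22, adjusted p = 0.153). GABRP had 5.76 and 5.86 with GSK-J4, against 5.83 and 5.81 with DMSO (-0.01, adjusted p = 0.979). Thus of the 4 GABA-A genes above background, 3 had every GSK-J4 array below both DMSO arrays, and 1 of these, GABRA4, passed the test. Such a separation was common: 4325 of the 13323 genes above background were lower on both GSK-J4 arrays.

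In the GABA-B pair, GABBR1, which binds GABA, was at 7.47 and 7.54 in GSK-J4 cells, against 6.76 and 6.87 in DMSO cells. Both GSK-J4 arrays lay above all 6 others. The rise was 0.69 (95% CI 0.38 to 1.01, SE 0.14, adjusted p = 0.0363), or 1.61-fold. It lost its call without any 1 array of GSK-J4, DMSO or control siRNA (adjusted p 0.093 to 0.249), with a difference of 0.64 to 0.74, and also in the t-test named by the methods (adjusted p = 0.162) and with a replicate block (adjusted p = 0.0967). Its partner GABBR2, which couples to the G protein, had 5.25 and 5.14 with GSK-J4, against 5.02 and 4.98 with DMSO (0.20, adjusted p = 0.527).

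The GABBR1 window (chr6:29627964-29628263, minus strand, GRCh38.p14) is shown because this was the 1 member that rose. It has 29 CG pairs in capitals, more than 75.8% of windows, and holds a GC box and a CRE.
GABBR1: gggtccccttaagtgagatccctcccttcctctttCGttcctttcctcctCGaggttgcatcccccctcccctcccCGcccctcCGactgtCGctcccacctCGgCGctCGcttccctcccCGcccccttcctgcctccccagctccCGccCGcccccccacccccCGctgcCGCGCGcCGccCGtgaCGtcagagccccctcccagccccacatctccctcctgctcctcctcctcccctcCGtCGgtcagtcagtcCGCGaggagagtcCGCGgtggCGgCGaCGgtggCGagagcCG

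**Figure D2:**
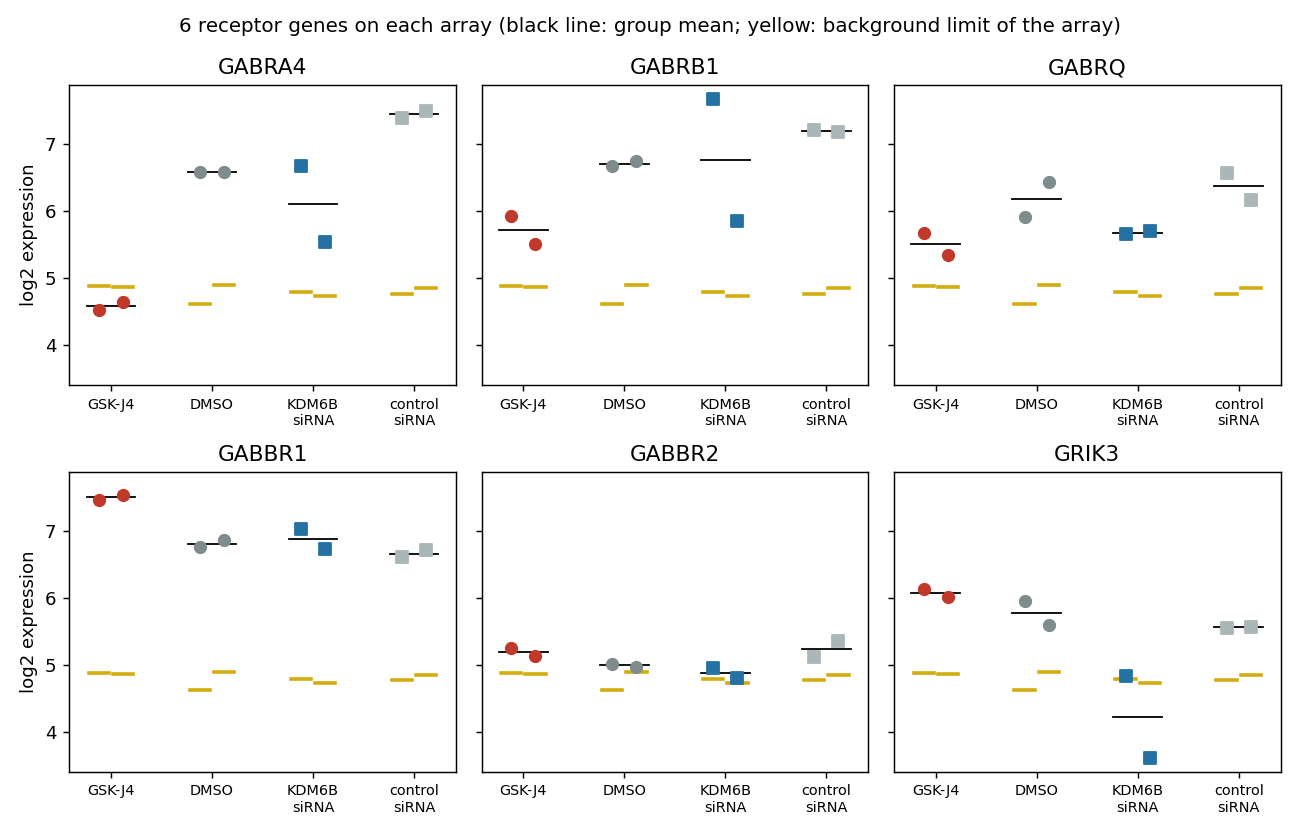
Log2 signal (vertical axis) of 6 receptor genes on each array, by group from left to right, with a black line at the group mean and a yellow mark at each array's background limit. GABRA4 lies below the limit with GSK-J4 (4.53 and 4.65), GABBR1 is highest with GSK-J4 (7.47 and 7.54), and GRIK3 is lowest with KDM6B siRNA (4.83 and 3.60).

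Among glutamate receptor genes, none passed in the GSK-J4 comparison. GRM8, an inhibitory presynaptic metabotropic receptor, had 5.98 and 5.87 with GSK-J4, against 5.22 and 5.58 with DMSO (0.52, SE 0.15, adjusted p = 0.103). GRIK3, a kainate subunit, had 6.13 and 6.01 with GSK-J4, against 5.96 and 5.60 with DMSO (0.30, SE 0.34, adjusted p = 0.737). Both genes were higher on each GSK-J4 array than on either DMSO array. GRIK2, another kainate subunit, had 8.24 and 8.40 with GSK-J4, against 8.16 and 8.11 with DMSO (0.19, adjusted p = 0.551). GRIN1 had 5.001 and 4.889 with GSK-J4, against 5.188 and 5.166 with DMSO (-0.23, adjusted p = 0.505). GRIK4 was above background on both GSK-J4 arrays (5.43 and 4.91) but on 1 of the DMSO arrays (5.39 and 4.88), a difference of 0.03 (adjusted p = 0.978) at the limit itself.

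**Figure D3:**
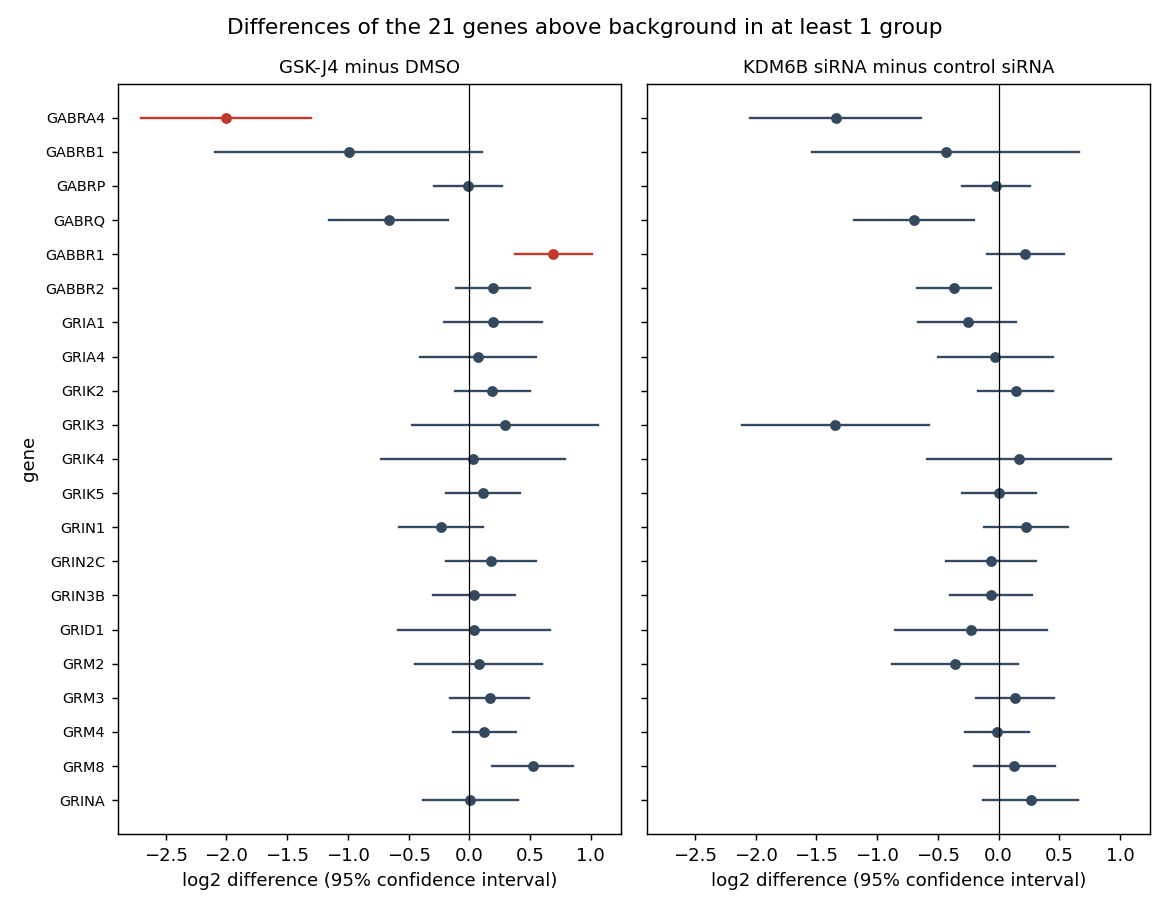
Log2 difference (horizontal axis) of the 21 genes above background (rows) in the comparison of GSK-J4 with DMSO and in that of KDM6B siRNA with control siRNA, with 95% intervals from limma; red marks an adjusted p under 0.05. GABRA4 at -2.00 and GABBR1 at 0.69 are red with GSK-J4, and no gene is red with KDM6B siRNA.

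KDM6B siRNA was compared with control siRNA to ask which receptor genes differed after knockdown of the demethylase itself. By limma, 0 of the 44 genes passed, against 0.605% of all genes. An unadjusted p under 0.05 was seen for 4 members and for 2588 of all 17687 genes. In the 4 arrays alone, limma and the t-test named by the methods each called 0 of all genes, and so 0 members. That t-test gave 1257 genes and 0 members an unadjusted p under 0.05. The median difference was -0.06 over the members and 0.01 over all genes. The arrays did not overlap for 16 members, 6 higher and 10 lower with KDM6B siRNA, against 41.9% of all genes.

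GRIK3 was at 4.83 and 3.60 in KDM6B siRNA cells, against 5.56 and 5.56 in control siRNA cells. One KDM6B siRNA array was just above its limit and the other well below. The difference was -1.34 (95% CI -2.11 to -0.58, SE 0.34, adjusted p = 0.124). Without replicate 1 of KDM6B siRNA it was -1.96 and without replicate 2 it was -0.73. With 1 array of the group left, its own spread is not measured, so no call is drawn from these fits. The second array is below background and its value is only a bound. With values below the limit raised to it, a setting added after seeing the data, the difference was -0.78 (adjusted p = 0.0387) and, without replicate 1, -0.83. Raising also narrows the gap between the arrays, and with it the SE, to 0.14. Its window (chr1:37034466-37034765, minus strand, GRCh38.p14), shown for this lowest member, holds a GC box and 37 CG pairs in capitals, more than 88.7% of windows.
GRIK3: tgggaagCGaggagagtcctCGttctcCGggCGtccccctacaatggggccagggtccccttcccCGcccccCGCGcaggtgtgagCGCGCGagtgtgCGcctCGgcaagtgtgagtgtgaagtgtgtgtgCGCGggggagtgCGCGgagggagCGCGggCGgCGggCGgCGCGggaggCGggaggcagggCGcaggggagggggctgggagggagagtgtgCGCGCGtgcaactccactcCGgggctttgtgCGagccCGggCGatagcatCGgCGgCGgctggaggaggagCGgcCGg

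GABRA4 was at 6.68 and 5.54 in KDM6B siRNA cells, against 7.40 and 7.50 in control siRNA cells, and all 4 arrays were above background. The difference was -1.34 (95% CI -2.04 to -0.64, SE 0.31, adjusted p = 0.103). It was -1.91 without replicate 1 of KDM6B siRNA and -0.77 without replicate 2. A fit with 1 array of this group holds none of its spread, so no call is drawn from it. GABRB1 was at 7.69 and 5.85 in KDM6B siRNA cells, against 7.21 and 7.19 in control siRNA cells, so that 1 array lay above both controls and 1 below. The difference was -0.43 (SE 0.48, adjusted p = 0.742).

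GABRQ had 5.66 and 5.70 with KDM6B siRNA, against 6.58 and 6.17 with control siRNA (-0.70, SE 0.22, adjusted p = 0.195). GABBR2 had 4.95 and 4.80, against 5.12 and 5.36 (-0.36, SE 0.13, adjusted p = 0.262). Both were lower on each KDM6B siRNA array than on either control array. GABBR1 had 7.03 and 6.74 with KDM6B siRNA, against 6.61 and 6.71 (0.22, adjusted p = 0.521).

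GRM2, an inhibitory metabotropic receptor, had 5.24 and 4.55 with KDM6B siRNA, against 5.38 and 5.13 with control siRNA (-0.36, adjusted p = 0.525), and was below the limit on the second KDM6B siRNA array. GRIN1 had 4.96 and 4.96 with KDM6B siRNA, against 4.53 and 4.93 (0.23, adjusted p = 0.543), with 1 control array below background. The remaining genes of the naming rule had smaller differences. GRIK2 had 8.54 and 8.27 with KDM6B siRNA, against 8.26 and 8.27 with control siRNA (0.14, adjusted p = 0.694). GRM3 had 5.71 and 5.61, against 5.44 and 5.61 (0.14, adjusted p = 0.722), and GRM8 had 5.69 and 5.64, against 5.56 and 5.51 (0.13, adjusted p = 0.744).

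The other members above background are given by their range over the 8 arrays, and none passed in a comparison. GRIA4, an AMPA subunit with fast kinetics, spanned 9.50 to 10.19, and GRID1, the delta-1 receptor, spanned 6.74 to 7.74. For both genes the lowest and the highest array were the 2 KDM6B siRNA arrays. GRIA1, another AMPA subunit, spanned 4.77 to 5.40, and GRIK5, a kainate subunit that needs a partner to form channels, spanned 5.83 to 6.32. The NMDA genes GRIN2C and GRIN3B spanned 5.59 to 6.03 and 5.02 to 5.36. GRM4, a metabotropic receptor that lowers cyclic AMP, had the smallest range of these, 6.41 to 6.61. GRINA spanned 8.04 to 8.60, with its highest value on the second KDM6B siRNA array.

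The KDM6B siRNA arrays disagreed on many receptor genes. Between them, 8 of the 21 genes above background differed by over 0.5, against 3328 of the 13323 genes above background. The gap (second array minus first) was -1.84 for GABRB1, -1.22 for GRIK3, -1.14 for GABRA4, -1.004 for GRID1 and -0.98 for GRIK4. GRIA4 and GRM2 had gaps of -0.69 each, and GRINA one of 0.51 in the other direction. Between the other pairs of arrays, the number was 1 with GSK-J4, 2 with DMSO and 0 with control siRNA. KDM6B itself and the mean of the 8 adrenergic markers were also lower on the second array (marker mean 9.50 and 8.77 with KDM6B siRNA, against 9.92 and 9.97 with control siRNA). The part these play in the gaps was not tested.

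**Figure D4:**
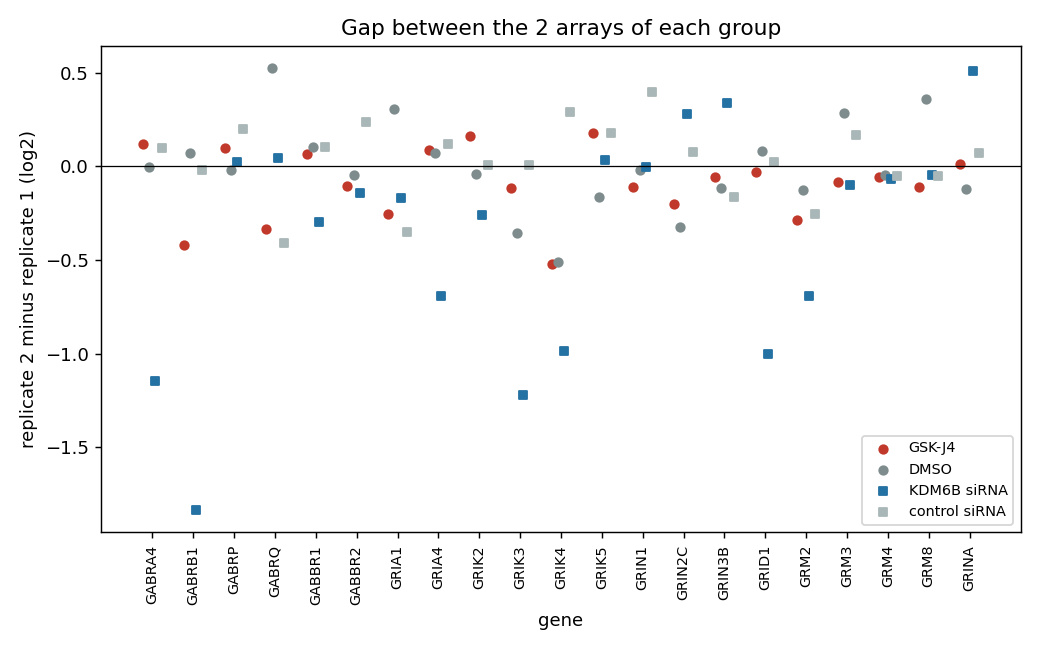
Log2 difference between the 2 arrays of each group (second minus first) for the 21 genes above background, 1 point per gene, by group. The KDM6B siRNA points run from -1.84 (GABRB1) to 0.51 (GRINA), and those of the other groups lie within 0.53 of 0.

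The difference between the GSK-J4 effect and the siRNA effect was tested for each gene, since the comparisons share no array. By limma, 0 members passed, against 0.922% of all genes. An unadjusted p under 0.05 was seen for 4 members and for 2143 of all genes. For GABRA4, the difference of effects was -0.66 (adjusted p = 0.626), with an interval from -1.66 to 0.33. With dim values raised to the limit, as in its bound, it was -0.38 (adjusted p = 0.624). For GABBR1 it was 0.47 (adjusted p = 0.392). For GRIK3 it was 1.64 (95% CI 0.55 to 2.73, adjusted p = 0.201) as deposited, and 1.08 (95% CI 0.63 to 1.52, adjusted p = 0.0401) with the KDM6B siRNA array below background raised to the limit. A call in one comparison and not in the other is therefore not shown to be a difference between them for GABRA4 and GABBR1, and for GRIK3 the outcome depended on how the dim array was treated.

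Beside the receptors, 65 genes of 6 lists for the same synapses were measured: synthesis and transport of GABA (8 genes), chloride transport (2), anchoring of GABA receptors (13), transport and metabolism of glutamate (11), auxiliary subunits of glutamate receptors (14) and scaffolds (17). With GSK-J4, 2 of the 65 rose and 1 fell, against 2.29% of all genes that rose and 1.41% that fell. With KDM6B siRNA 0 rose and 1 fell, against 0.605% of all genes called in either direction. No gene of GABA synthesis, chloride transport or glutamate transport passed in either comparison.

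GABARAPL1, which binds GABA-A receptors and tubulin and serves in autophagy, rose with GSK-J4, at 8.38 and 8.41 against 6.75 and 6.61 with DMSO (1.71, SE 0.34, adjusted p = 0.0366). DLG4, which encodes PSD-95, the main scaffold of excitatory synapses, rose at 7.06 and 7.19 with GSK-J4 against 6.03 and 5.82 with DMSO (1.20, SE 0.17, adjusted p = 0.0112). HOMER1, a scaffold of metabotropic glutamate receptors, fell at 5.56 and 5.61 with GSK-J4 against 6.29 and 6.41 with DMSO (-0.77, SE 0.12, adjusted p = 0.0143). These 3 genes thus moved in different directions with GSK-J4, and the methods' t-test called 0 of all genes in that comparison. With KDM6B siRNA none of them passed. The differences there were 1.07 for GABARAPL1 (limma adjusted p = 0.207), -0.11 for DLG4 and -0.03 for HOMER1.

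NETO2, an auxiliary subunit of kainate receptors, fell with KDM6B siRNA, at 8.59 and 8.41 against 9.68 and 9.58 with control siRNA (-1.14, SE 0.12, adjusted p = 0.0187). This call was lost in the 4 arrays of the comparison alone and in the methods' t-test, which each called 0 of all genes. With GSK-J4 NETO2 had 9.57 and 9.53, against 9.49 and 9.53 with DMSO (0.04, adjusted p = 0.922), and the difference of effects passed (1.18, SE 0.17, adjusted p = 0.0271). SLC7A11, the cystine-glutamate exchanger, had 9.58 and 9.66 with GSK-J4, against 6.63 and 6.70 with DMSO (2.95, SE 0.86, adjusted p = 0.117), and was at 5.31 and 8.73 on the KDM6B siRNA arrays, which widened its shared spread.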

How the data were processed

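RNA of 8 BE2C samples was measured on Affymetrix Clariom S arrays after a whole-transcript labelling kit. The table deposited by the authors holds 1 log2 value per probe set and array. The submitters' processing notes name GCOS, and how background was corrected and arrays normalized is not given in the sources used here. The log2 scale was read from the values, 1.69 to 13.45, whose array medians lay at 6.16 to 6.20.

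The table had 24351 probe sets, 21448 of them for transcripts and 612 negative controls. Of the transcript probe sets 17709 had 1 symbol, from the platform annotation, and the other 3739, with no symbol or with several, were left out. Where a gene had more than 1 (20 genes, no member) the highest mean stood for it. The test was limma 3.58.1 under R 4.3.3 (lmFit, eBayes, two-sided) on all 8 arrays with 1 coefficient per group. The degrees of freedom were 4 residual plus 4.18 prior. Benjamini-Hochberg adjustment ran over 17687 genes, and 0.05 was the threshold. The script was tested on simulated data with 1 spread per gene for all groups. The wider gap between the KDM6B siRNA arrays was therefore not covered by that test. Alternatives were other normalizations, filters, variance models, a replicate block, the methods' t-test and each array left out.

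The members and lists were chosen with earlier results of these data known. Named members were those called, the 5 largest rises and falls per comparison above background without overlap of arrays, and those above background in some groups only. Of each list, passing genes are named. SLC7A11 was named after its values were seen. The number of arrays limits the precision.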

Additional observations from a re-analysis of the deposited data

How the results depend on the processing

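With GSK-J4, the 654 genes and 2 members called became 1908 and 4 in the 4 arrays alone, 2116 and 5 with array weights, 225 and 1 with a replicate block, 0 and 0 with the methods' t-test, and 2537 and 5 without both KDM6B siRNA arrays, a setting added after seeing the data. The t-test gave 3324 genes and 5 members an unadjusted p under 0.05. In the limma fits that called more than 2 members, the added ones were GABRB1 and GABRG1, joined by GRM8 where 5 were called. Of these, GABRG1 was below background in every group. With each array left out in turn, the count was 55 to 2537 for all genes and 0 to 5 for members, highest without either KDM6B siRNA array. GABRA4 passed in 13 of 20 settings, missing without each GSK-J4, DMSO or control siRNA array and with the t-test (adjusted p = 0.119). GABBR1 passed in 12 of 20, missing without the same arrays, with the replicate block (0.0967) and with the t-test (0.162). The settings are not separate fits, so these tallies are no measure of support. For this comparison, leaving out either or both KDM6B siRNA arrays gave the same result, as did leaving out either control siRNA array. Taking each probe set on its own nearly repeated the main fit. Neither changed direction in these settings.

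With KDM6B siRNA, the 107 genes became 0 in the 4 arrays alone, 27 with array weights, 4 with a replicate block and 0 with the t-test, all with 0 members. With values below background raised to the limit, also added after seeing the data, 257 genes and 1 member (GRIK3) were called. Leaving out each array gave 0 to 3518 genes and 0 to 6 members. The 6 members without KDM6B siRNA replicate 1 were GABRA4, GABRB1, GRID1, GRIK3, GRINA and GRM2, and the 2 without replicate 2 were GABRA4 and GRIK3. For GABRB1 the difference was -1.35 without replicate 1 and 0.48 without replicate 2. For the difference of effects, 163 genes became 52 with the replicate block, members called became 1 (GRIK3) with raised values, and 17 to 2486 genes and 0 to 4 members with an array left out. Without replicate 1 these were GABBR1, GRID1, GRIK3 and GRM2, and without replicate 2 they were 3, GABRA4, GABRB1 and GRIK3. Where a group keeps 1 array, that array is assumed to vary like the others. The KDM6B siRNA arrays varied more, with 906 genes over 1 log2 unit apart, against 3 to 8 in the other groups. Calls from fits with 1 KDM6B siRNA array therefore leave out the widest spread.

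The labels do not say whether same-numbered arrays were pairs. Same-numbered deviations correlated at 0.088 (GSK-J4 and DMSO) and -0.036 (siRNA). These values show no strong shared shift, but they cannot exclude pairing. At the 99th percentile of the negative controls, members above background were 5 with GSK-J4, 7 with DMSO, 5 with KDM6B siRNA and 8 with control siRNA, so most members above the 95th percentile lay below the 99th in at least 1 array of a group.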

Other observations

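The GABA-A genes lie in clusters, and some neighbours of the genes above background were themselves below it. GABRA3, the protein-coding neighbour of GABRQ on chromosome X, had 3.80 and 4.14 with GSK-J4, against 4.34 and 4.34 with DMSO, all below the background limit. GABRG1 and GABRA2, which neighbour each other on chromosome 4, were also below it on every array. GABRG1 was at 3.08 and 3.34 with GSK-J4, against 2.68 and 2.74 with DMSO (0.50, limma adjusted p = 0.104). These are levels below background and are given as values only.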
